A study of Mus musculus with 16 samples.

Results

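The genes of the aminoacyl-tRNA synthetases were followed in mouse retina after optic nerve crush, with and without a drug that inhibits DLK (dual leucine zipper kinase). The set was taken by gene name and not by a cut-off on measured values, but it was chosen with earlier results of these data known. It holds 36 of the 36528 gene identifiers in the files, of which 20 encode the enzymes of the cytosol and 16 those of mitochondria. Every one of the 36 passed the filter on low counts and was tested. The 16 libraries came from retinas collected 3 days after the crush, which damages ganglion cell axons in the nerve. With the vehicle there were 3 uncrushed and 3 crushed retinas, and with the drug 5 uncrushed and 5 crushed retinas. The vehicle was MCT, and DLKi stands for GNE-3511 given at 75 mg/kg at 60 h and 68 h after injury. Whether an uncrushed retina is the other eye of a crushed one is not stated, but the library numbers in the titles run in 8 consecutive couples of a crushed and an uncrushed retina with the same drug. Per the labels, 5 mice received each drug. If so, the 5 uncrushed and 5 crushed DLKi retinas would be both eyes of each mouse. Which eyes belong together is not stated, and the main test took all retinas as independent. All 16 samples of the study were used, with no further vehicle retinas among them. The sources used here give no strain, sex or age. Since no label ties retinas to animals, p-values measure only the spread between these samples.

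Each aminoacyl-tRNA synthetase joins an amino acid to the transfer RNAs that read its codons, and so supplies the ribosome with charged tRNA. Animal cells keep largely separate enzymes for the cytosol and for mitochondria, all encoded in the nucleus. Gars and Kars are exceptions whose products serve both compartments. The enzymes fall into classes I and II by the fold of the catalytic domain, and several cytosolic ones sit together in a multisynthetase complex held by the scaffold proteins Aimp1, Aimp2 and Eef1e1. Many cytosolic synthetase genes are known targets of ATF4, a transcription factor made in the integrated stress response, which is translated when the initiation factor eIF2 is phosphorylated. ATF4 binds composite C/EBP-ATF elements with the core TGATGNAA. DLK is a neuronal kinase that signals from injured axons to the cell body.

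The genes were looked up in a RefSeq table of promoters, which covers the 250 bases before to 50 bases after a gene's start (GRCm38.p6). It held 27 of the 36 genes, 13 cytosolic and 14 mitochondrial. The core TGATGNAA, searched on both strands, occurred in 5 of the 13 cytosolic promoters (Aars, Gars, Iars, Tars and Yars) and in 0 of the 14 mitochondrial ones, against 3.97% of all 32851 promoters in the table. The windows below are shown because these 5 genes were all among those that rose with DLKi in uncrushed retina. Capitals mark the core, on the strand of the gene or its complement, and positions count from the start site. In Aars the core lay at -112 (chr8:111033704-111033763, plus strand) and again at 9 (chr8:111033840-111033869). In Gars it lay at -30 (chr6:55037945-55038000, plus strand), in Iars at 7 (chr13:49682126-49682155, plus strand), in Tars at -15 (chr15:11399659-11399699, minus strand) and in Yars at 3 (chr4:129189895-129189924, plus strand). For Aars and Yars the start used lies inside the gene's span (chr8:111027778-111055569 and chr4:129189734-129219240) and is not its outermost start.
Aars upstream: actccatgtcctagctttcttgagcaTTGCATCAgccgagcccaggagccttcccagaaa
Aars downstream: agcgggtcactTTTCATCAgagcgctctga
Gars: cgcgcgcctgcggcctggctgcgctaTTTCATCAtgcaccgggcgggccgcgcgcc
Iars: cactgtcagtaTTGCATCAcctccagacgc
Tars: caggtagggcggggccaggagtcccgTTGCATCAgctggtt
Yars: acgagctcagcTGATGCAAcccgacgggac
A match describes these letters only and is not evidence of binding. Of the promoters searched, that of Qars alone held an interferon-stimulated response element (3.44% of all promoters). TTCNNNGAA, the core bound by STAT factors, was present in Aars, Kars and Nars2 (8.3% of all promoters).

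Levels are given as nRPKM, the authors' size-factor-adjusted RPKM, which corrects for gene length. The cytosolic genes averaged 13.7 to 75.5 nRPKM over the 16 libraries, with a median of 24.6. The mitochondrial genes averaged 2.02 to 48.1 nRPKM, with a median of 6.67. The most abundant were Nars (asparagine, 75.5), Aars (alanine, 61.6), Gars (glycine, 57.0), the mitochondrial Lars2 (leucine, 48.1) and Sars (serine, 44.9). At the other end stood Wars2 (tryptophan, 2.02), Ears2 (glutamate, 2.27) and Nars2 (asparagine, 2.50). Counts behind these levels ran from 211 to 14938 reads per gene and library. For 13 amino acids the set holds a cytosolic and a mitochondrial gene. The cytosolic gene had the higher level in 12 of the 13, by 1.11-fold for Iars over Iars2 and up to 30.2-fold for Nars over Nars2. In the leucine pair the order was reversed, with a ratio of Lars to Lars2 of 0.291.

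**Figure D1:**
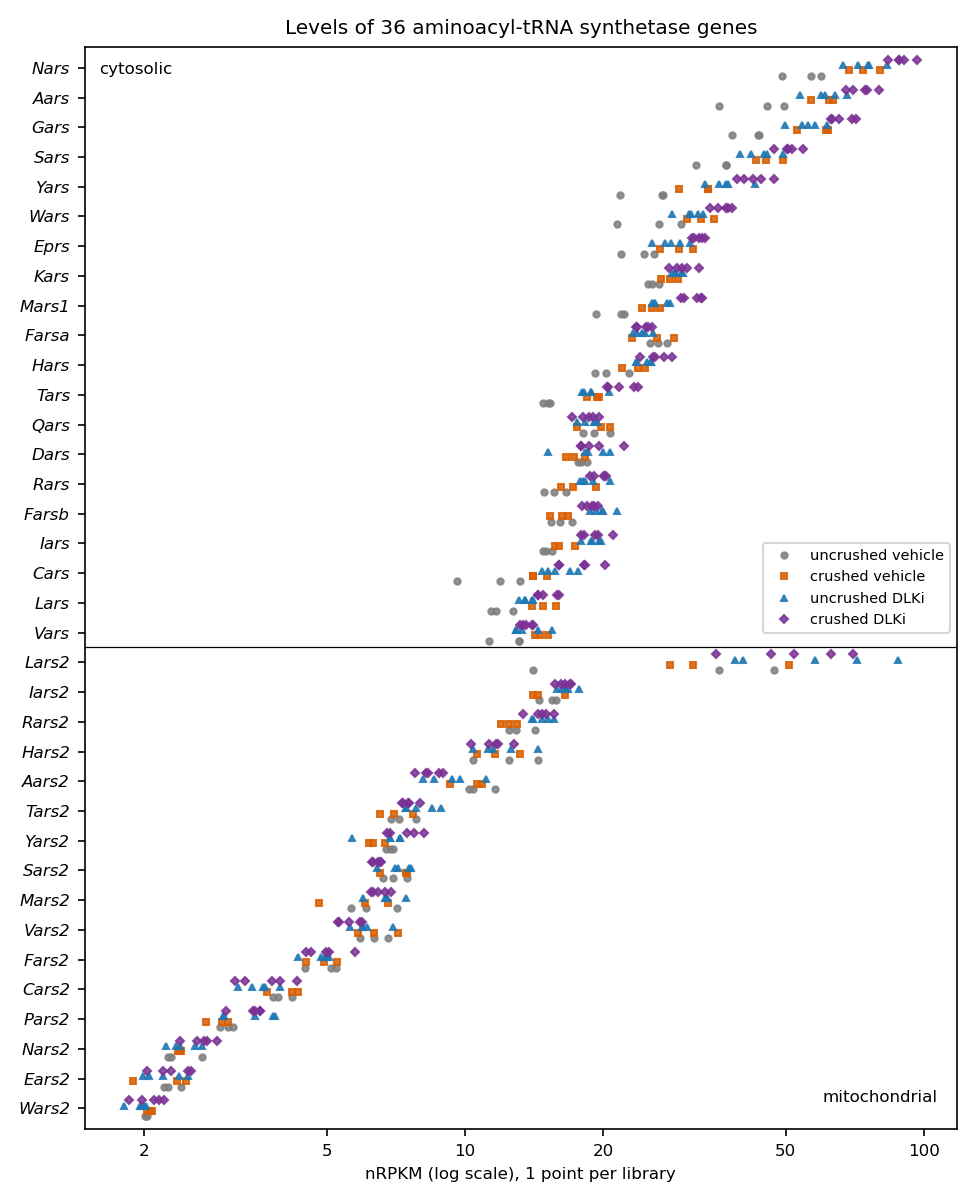
Level of each of the 36 synthetase genes in nRPKM on a log axis, with 1 point per library and 1 symbol per group; cytosolic genes are above the line and mitochondrial genes below it, each ordered by mean level. In most cytosolic rows the grey points of uncrushed vehicle retina lie to the left, while in the mitochondrial rows the groups are intermixed.

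The libraries held 22.35 to 44.75 M counted reads, of which the 36 genes took 0.211% to 0.324%. Uncrushed vehicle replicate 1 was the shallowest library and had the largest share of counts from the mitochondrial genome, 4.539%. Its counts differed from those of the other uncrushed vehicle libraries by a chi-square per degree of freedom of 30.01 and 42.84, against 8.90 between those. Crushed vehicle replicate 3 was set aside with it in 1 alternative fit, though it differed by only 20.71 and 22.08 from its group, against 18.42. Uncrushed DLKi replicate 5 differed from its group by 25.86 to 33.8. Transcripts of the lens, a neighbouring tissue, varied widely: the mean log2 CPM of 6 lens genes ran from -3.24 to 5.19, with the highest values in uncrushed vehicle replicate 2 and uncrushed DLKi replicates 3 and 5. Rod markers, which check the tissue, averaged 12 log2 CPM in each of the 4 groups.

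The cytosolic genes as a class were lowest in uncrushed vehicle retina and highest in crushed DLKi retina. Their mean log2 CPM was 6.21, 6.30 and 6.30 in the 3 uncrushed vehicle libraries and 6.52, 6.55 and 6.46 in the 3 crushed vehicle ones. It was 6.54, 6.51, 6.63, 6.55 and 6.46 with DLKi and no crush and 6.68, 6.69, 6.72, 6.60 and 6.65 with DLKi and crush. Uncrushed vehicle retina overlapped with no other group, whereas crushed vehicle and uncrushed DLKi overlapped. Only uncrushed DLKi replicate 3 reached into the range of crushed DLKi. Of the 20 cytosolic genes, 16 had their lowest mean in uncrushed vehicle and 16 their highest in crushed DLKi retina. Summed over the class, nRPKM was 480 ± 25.7, 586 ± 27.0, 594 ± 30.5 and 667 ± 24.9 in uncrushed vehicle, crushed vehicle, uncrushed DLKi and crushed DLKi retina (mean ± SD, n = 3, 3, 5 and 5). The same sum for 15 mitochondrial genes, Lars2 left out, was 104 ± 3.61, 101 ± 3.44, 106 ± 4.60 and 104 ± 0.707. Within a library, the cytosolic mean log2 CPM exceeded the mitochondrial one by 1.71 ± 0.035 in uncrushed vehicle, 1.95 ± 0.134 in crushed vehicle, 1.91 ± 0.052 with DLKi and no crush and 2.05 ± 0.047 with DLKi and crush. Within each of the 8 couples of consecutive library numbers, the crushed retina had the higher cytosolic mean log2 CPM, with 15 to 20 of the 20 genes higher. Since the crushed and uncrushed means hardly overlapped under either drug, nearly any pairing gives this direction. It therefore adds no support beyond the group values. These are whole-retina values, in which fewer cells of a type and less RNA per cell cannot be told apart.

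**Figure D2:**
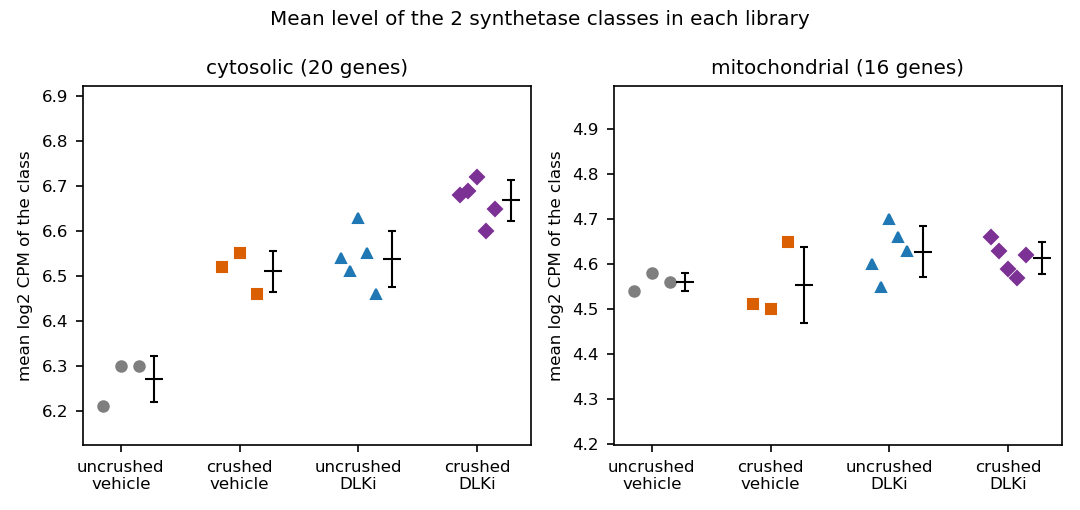
Mean log2 CPM of the 20 cytosolic (left) and 16 mitochondrial (right) synthetase genes, with 1 point per library and the group mean ± SD in black; both vertical axes span the same width and do not start at 0. The cytosolic mean is lowest in uncrushed vehicle (6.27) and highest in crushed DLKi retina (6.67), while the mitochondrial means lie between 4.55 and 4.63.

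The first comparison asked what crush did with vehicle alone. Of the 20 cytosolic genes, 7 rose: Gars, Aars, Nars, Sars, Tars, Lars and Mars1, by 0.27 to 0.49 on the log2 scale. A gene is said to have risen or fallen where its adjusted p was 0.05 or less (edgeR quasi-likelihood test, Benjamini-Hochberg over 19391 genes). By that rule 1.77% of all tested genes rose and 0.861% fell in this comparison, 2.63% in all. The median change was 0.27 over the cytosolic genes and -0.00 over all tested genes. None of the 20 fell, and 14 had an unadjusted p under 0.05 with a higher level after crush (6.36% of all genes). In 14 of the 20 all 3 crushed libraries lay above all 3 uncrushed ones (8.13% of all genes). Farsa, Farsb, Dars and Qars stayed within 0.04 of 0. Of the 16 mitochondrial genes 0 passed the test, also with DESeq2, and their median change was -0.03. Among them 0 had an unadjusted p under 0.05 (10.4% of all genes). The ganglion cell markers fell in 9 of 11 cases, with a median of -1.09, while 4 of 9 microglial and 5 of 8 interferon-response genes rose. Their part in the synthetase result was not tested. Without crushed vehicle replicate 1, or without replicate 2, only 2 cytosolic genes passed, and without uncrushed vehicle replicate 2 there were 4. With the 2 vehicle libraries set aside there were 4, and with only the 2 vehicle groups fitted 1 (Gars). Of all genes, 276, 391 and 279 passed in the first 3 of these fits and 389 and 281 in the last 2. In the edgeR fit of all 16 libraries 510 passed. The changes of the 7 genes stayed at 0.27 to 0.49 with only the 2 groups fitted and at 0.30 to 0.50 without the 2 vehicle libraries set aside. With the couples of consecutive library numbers as a block, a fit added after the data were seen, 12 of the 20 rose (3.81% of all genes): the 7 and Cars, Eprs, Vars, Wars and Yars.

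With DLKi on board, crush raised 4 cytosolic genes, Nars, Gars, Mars1 and Tars, by 0.22 to 0.26, against 3.29% of all genes that rose and 2.04% that fell (5.33% in all). The cytosolic median was 0.15, and 10 of the 20 were higher at an unadjusted p under 0.05 (8.07% of all genes). All 5 crushed libraries lay above all 5 uncrushed ones for 6 of the 20 genes (3.4% of all genes). Of the mitochondrial genes 0 passed, also with DESeq2, with a median of -0.01. Sars2 alone among them had an unadjusted p under 0.05 (14.4% of all genes), at a log2 change of -0.15. Ganglion cell markers fell in 9 of 11 cases, 8 of 9 microglial and 8 of 8 interferon-response genes rose, and 5 of 6 lens genes fell; their part in the synthetase result was not tested. The count was 1 without crushed DLKi replicate 1 or replicate 3, and 2 without crushed DLKi replicate 2 or uncrushed DLKi replicate 1, 4 or 5. It was 7 without uncrushed vehicle replicate 1, 8 without the 2 vehicle libraries set aside and 2 without the 3 lens-rich libraries. Of all genes, 748 and 927 passed in the first 2 of these fits and 786, 941, 783 and 1002 in the next 4. The last 3 fits passed 1258, 1378 and 620, against 1034 in the edgeR fit of all 16 libraries.

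In uncrushed retina, DLKi was compared with vehicle to see the change with the drug alone. Here 9 of the 20 cytosolic genes rose: Yars, Aars, Cars, Nars, Gars, Mars1, Iars, Tars and Farsb, by 0.29 to 0.56. Only 0.263% of all tested genes rose in this comparison and 0.366% fell (0.629% in all). The cytosolic median was 0.28, against 0.01 over all genes, and 17 of 20 were higher at an unadjusted p under 0.05 (9.2% of all genes). The 5 DLKi libraries lay above the 3 vehicle ones for 14 of the 20 (5.24% of all genes). Of the mitochondrial genes 0 passed, also with DESeq2, with a median of -0.00. Among them 4 had an unadjusted p under 0.05 (17.3% of all genes), of which 3 were higher. None of the 11 ganglion cell, 9 microglial, 8 interferon-response or 6 lens markers passed the test, and the medians of these lists were 0.27, -0.21, -0.10 and 1.20. The count was 1 without uncrushed vehicle replicate 1 or 2 or uncrushed DLKi replicate 3 or 4, and 4 without uncrushed vehicle replicate 3. Of all genes, 19, 17, 23, 26 and 63 passed in these 5 fits, against 122 in the edgeR fit of all 16 libraries. The count was 0 in the fit of the 2 groups alone, 0 without the 2 vehicle libraries set aside and 0 without the 3 lens-rich libraries, whereas DESeq2 gave 14 (1.78% of all genes). In the 3 fits that gave 0, only 3, 11 and 7 of all genes passed. The changes of the 9 genes stayed at 0.28 to 0.55, 0.31 to 0.57 and 0.24 to 0.58 in the 3 fits that gave 0, in the order named. The 3 uncrushed vehicle libraries are the reference both here and in the crush comparison with vehicle, so both lists rest partly on the same samples.

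In crushed retina, DLKi against vehicle raised 1 cytosolic gene, Mars1, by 0.30 ± 0.06 (SE; edgeR quasi-likelihood adjusted p = 0.0365). All genes that rose made up 0.129% of those tested, those that fell 0.376% (0.505% in all). The cytosolic median was 0.16 against 0.01 over all genes, and 12 of 20 were higher at an unadjusted p under 0.05 (6.51% of all genes). For 9 of the 20 all DLKi libraries lay above all vehicle ones (4.68% of all genes), and for Vars they lay below. Of the mitochondrial genes 0 passed, also with DESeq2, with a median of 0.07. At an unadjusted p under 0.05 stood 7 of the 16 (13.7% of all genes), of which 4 were higher and 3 lower. Mars1 no longer passed without crushed vehicle replicate 1, 2 or 3, uncrushed DLKi replicate 1 or crushed DLKi replicate 1, 3 or 5, without the filter, without the 2 vehicle libraries set aside, without the 3 lens-rich libraries, and when only the 2 groups were fitted. Without uncrushed vehicle replicate 1 or uncrushed DLKi replicate 3 or 5 the count was 2. Of all genes, 144, 98 and 134 passed in these 3 fits, against 98 in the edgeR fit of all 16 libraries. Of the ganglion cell markers 3 of 11 rose here (Isl2, Pou4f1 and Pou4f2), and their part was not tested. DESeq2 passed 5 (0.918% of all genes): Mars1, Yars, Iars, Farsb and Nars. In the other 2 comparisons DESeq2 passed 10 (crush with vehicle, 2.42% of all genes) and 7 (crush with DLKi, 3.79%).

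Whether the crush effect differed between drugs was tested as a difference of the 2 effects. None of the 36 genes passed with edgeR or DESeq2, as did only 0.0103% of all genes with edgeR. The difference, DLKi minus vehicle, was negative for 18 of the 20 cytosolic genes, with a median of -0.10; 51.6% of all genes had a negative difference. At an unadjusted p under 0.05 stood Vars, at -0.25 ± 0.10, and Gars, at -0.24 ± 0.11 (SE); 1.54% of all genes did so. The 95% intervals ran from -0.45 to -0.05 for Vars and from -0.47 to -0.02 for Gars. The largest positive difference of a cytosolic gene was that of Dars, 0.10 ± 0.13. Among mitochondrial genes the median difference was 0.04, the extremes were Yars2 at 0.23 ± 0.12 and Lars2 at -0.33 ± 0.47, and 0 had an unadjusted p under 0.05.

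**Figure D3:**
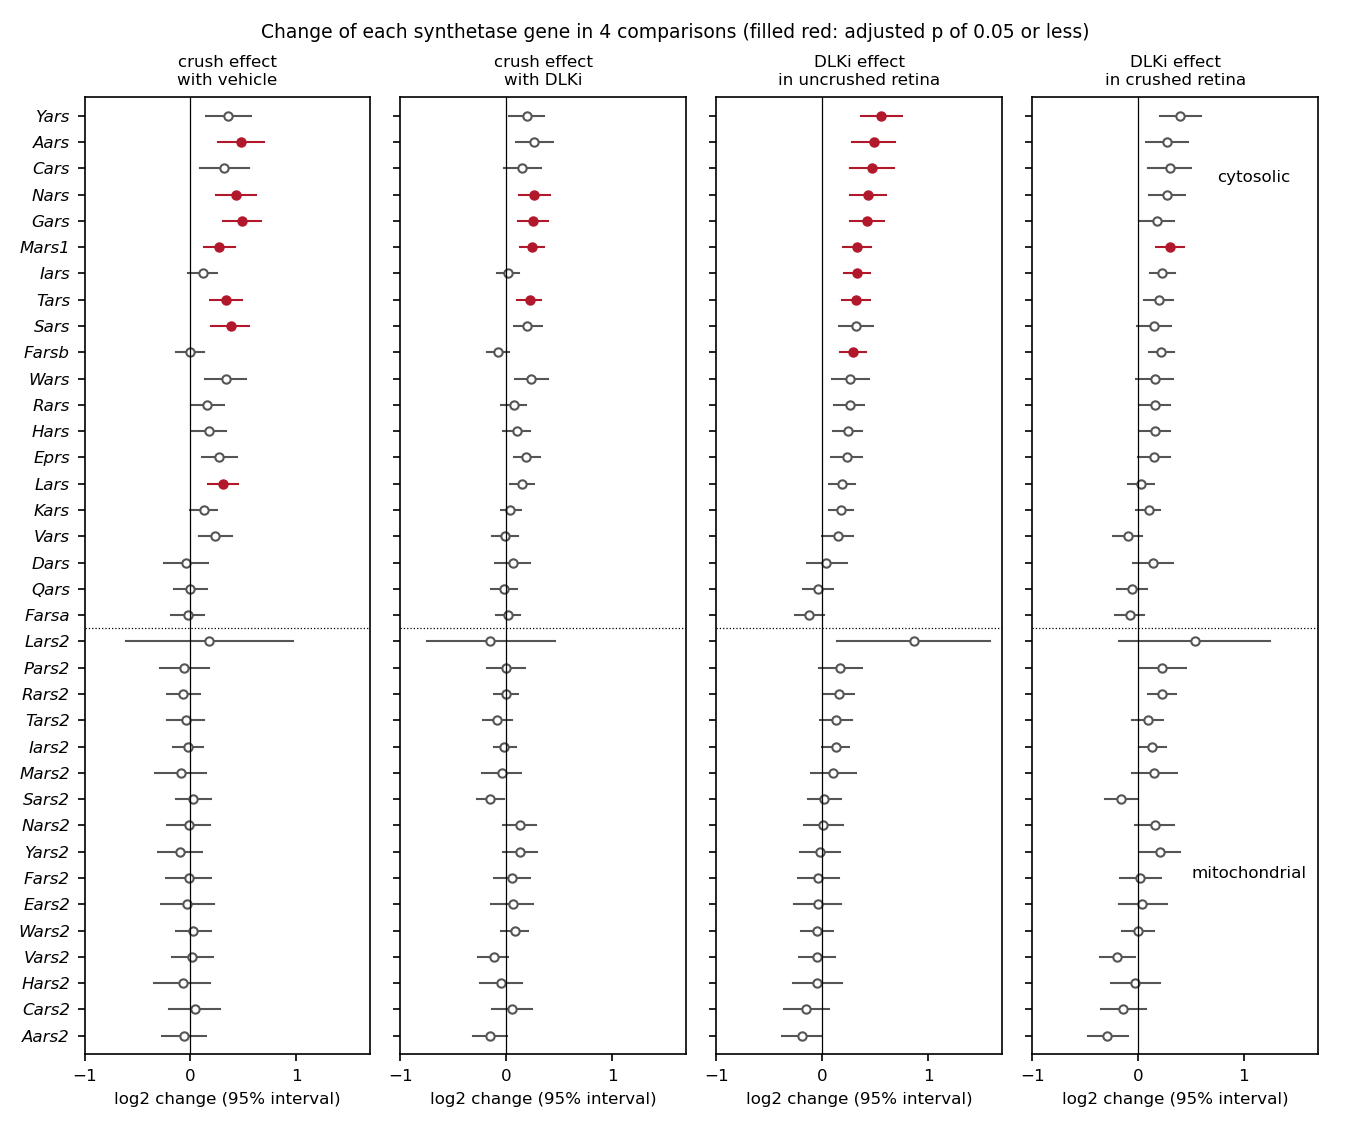
Log2 change of each of the 36 genes with its 95% interval in 4 comparisons, ordered within each class by the change with DLKi in uncrushed retina; filled red points had an adjusted p of 0.05 or less. The 7, 4, 9 and 1 red points are all cytosolic, and the mitochondrial points other than Lars2 lie between -0.29 and 0.23.

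Nars, Aars and Gars, the most abundant cytosolic genes, are class II enzymes that stand outside the multisynthetase complex. Nars (Entrez 70223), for asparagine, was at 49.1, 56.8 and 59.6 nRPKM in uncrushed vehicle and at 73.8, 80.3 and 68.6 in crushed vehicle retina. With DLKi it was at 75.8, 71.7, 83.2, 75.5 and 66.6 in uncrushed and at 88.3, 90.5, 96.7, 83.4 and 88.1 in crushed retina. Uncrushed vehicle lay below every other library and crushed DLKi above every other, while crushed vehicle and uncrushed DLKi overlapped. The log2 change was 0.43 ± 0.09 with crush under vehicle (adjusted p = 0.0114), 0.26 ± 0.07 with crush under DLKi (0.0286) and 0.43 ± 0.08 with DLKi in uncrushed retina (0.0236; SE, edgeR quasi-likelihood). In crushed retina DLKi gave 0.27 ± 0.08, with an edgeR adjusted p of 0.149.

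Aars (Entrez 234734, chr8:111027778-111055569) makes the enzyme for alanine. It stood at 35.7, 45.6 and 49.5 nRPKM in uncrushed vehicle and 62.1, 63.4 and 56.8 in crushed vehicle libraries. The DLKi libraries held 61.0, 59.5, 68.1, 64.0 and 53.6 without crush and 75.2, 74.3, 79.7, 67.5 and 69.9 with it. No uncrushed vehicle library reached any other group, and the DLKi groups overlapped only through uncrushed DLKi replicate 3. Crush with vehicle raised Aars by 0.48 ± 0.11 (edgeR adjusted p = 0.0182) and DLKi in uncrushed retina by 0.49 ± 0.10 (0.0293). Crush with DLKi gave 0.26 ± 0.08, at an edgeR adjusted p of 0.0808. Exons of Exosc6 on the same strand overlap 15.1% of its exon length, so some of its reads may come from that gene.

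Gars (Entrez 353172, chr6:55038001-55079504), encodes the glycine enzyme of cytosol and mitochondria. Its levels were 38.1, 43.7 and 43.4 nRPKM in uncrushed vehicle retina and 61.7, 61.3 and 53.0 in crushed vehicle retina. They were 56.0, 54.3, 61.4, 57.9 and 49.9 with DLKi and no crush and 69.6, 65.3, 71.0, 62.9 and 62.8 with DLKi and crush. Uncrushed and crushed libraries were separate under each drug, and the 3 uncrushed vehicle libraries lay below all others. Gars rose by 0.49 ± 0.09 with crush under vehicle (edgeR adjusted p = 0.00286), a call kept in 23 of 23 alternative fits with adjusted p of up to 0.0446. It rose by 0.25 ± 0.07 with crush under DLKi (edgeR adjusted p = 0.0315) and by 0.42 ± 0.08 with DLKi in uncrushed retina (0.0230), calls kept in 15 of 23 and 15 of 22 alternative fits.

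Sars and Tars are also class II enzymes outside the complex. Sars (Entrez 20226), for serine, measured 31.9, 37.1 and 37.0 nRPKM in uncrushed vehicle and 45.3, 49.2 and 43.1 in crushed vehicle retina. Under DLKi it measured 45.4, 42.0, 49.2, 44.9 and 39.7 in uncrushed and 50.6, 54.4, 51.6, 47.1 and 50.4 in crushed retina. Only the uncrushed vehicle libraries stood clear of the rest. Its rise with crush under vehicle was 0.38 ± 0.08 (edgeR adjusted p = 0.0200), and DLKi in uncrushed retina gave 0.32 ± 0.08 (0.0665). Tars (Entrez 110960), for threonine, held close to 14.8, 15.2 and 15.3 nRPKM in uncrushed vehicle libraries and to 19.4, 19.6 and 18.4 in crushed vehicle ones. Its DLKi values were 18.2, 18.8, 20.6, 18.8 and 18 without crush and 23.3, 21.7, 23.8, 20.4 and 20.5 with crush. The DLKi groups overlapped by a narrow margin, since uncrushed replicate 3 exceeded crushed replicates 4 and 5. Tars rose by 0.34 ± 0.07, 0.22 ± 0.05 and 0.32 ± 0.06 with crush under vehicle, crush under DLKi and DLKi without crush (edgeR adjusted p = 0.0114, 0.0220 and 0.0309).

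Yars and Cars, class I enzymes outside the complex, passed the test with DLKi in uncrushed retina. Yars (Entrez 107271), for tyrosine, was at 21.8, 26.9 and 27.0 nRPKM in uncrushed vehicle and 33.9, 33.9 and 29.2 in crushed vehicle retina. DLKi libraries held 37.4, 35.7, 42.9, 37.1 and 33.3 without crush and 42.4, 44.1, 47.1, 39.2 and 40.5 with it. Every crushed DLKi library lay above every crushed vehicle one, and the same held between the uncrushed groups. The change with DLKi in uncrushed retina, 0.56 ± 0.09, was the largest of any cytosolic gene in any comparison (edgeR adjusted p = 0.0113). In crushed retina DLKi gave 0.40 ± 0.09, which just missed the threshold at an edgeR adjusted p of 0.0596. Crush with vehicle gave 0.36 ± 0.10 (edgeR adjusted p = 0.0737), and these changes were not shown to differ. Cars (Entrez 27267), for cysteine, was at 13.2, 11.9 and 9.59 nRPKM in uncrushed vehicle and 14.1, 14.1 and 15.1 in crushed vehicle libraries. It was at 15.7, 14.7, 17.6, 15.2 and 16.9 with DLKi and no crush and 18.2, 16, 20.2, 16 and 18.3 with DLKi and crush. In Cars, uncrushed vehicle replicate 3 was the low library and not replicate 1. The gene rose by 0.47 ± 0.10 with DLKi in uncrushed retina (edgeR adjusted p = 0.0381), and crush with vehicle gave 0.32 ± 0.11 (0.173).

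**Figure D4:**
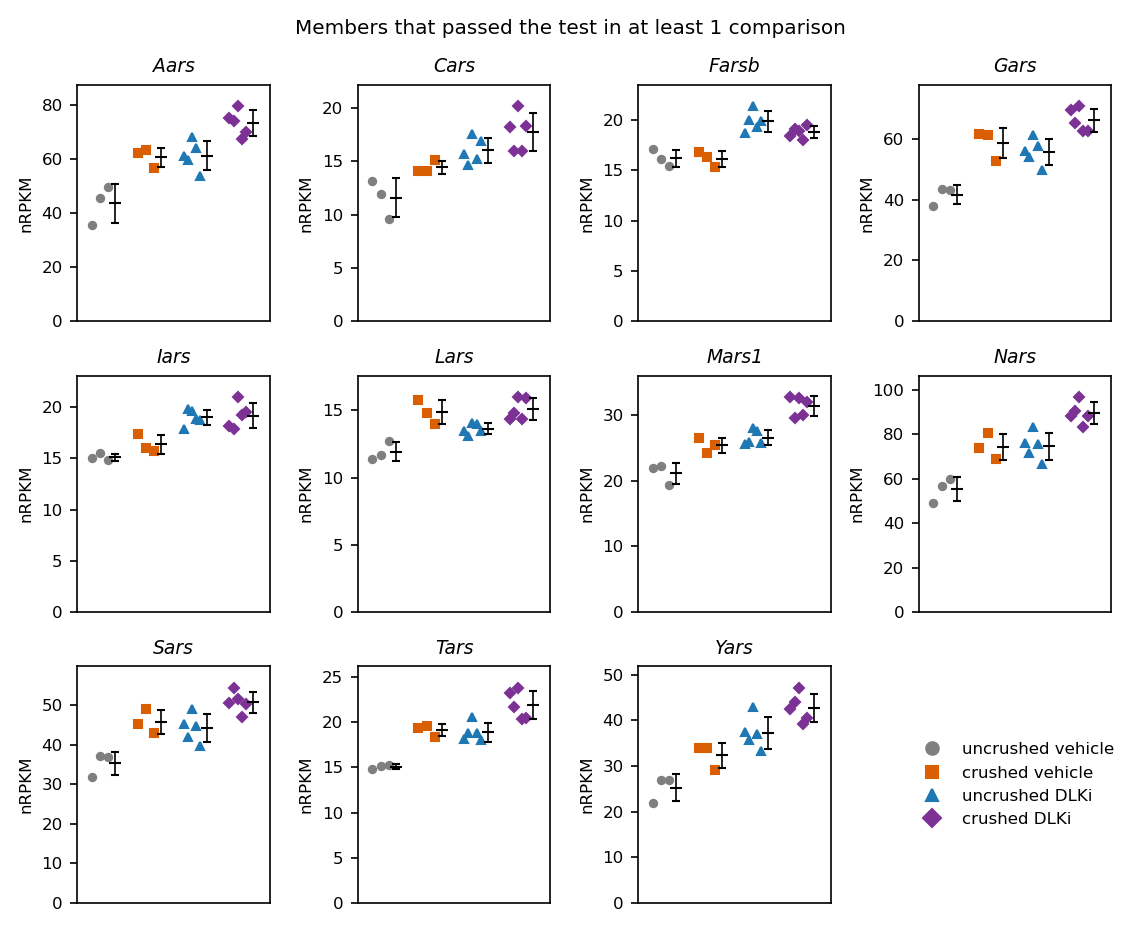
nRPKM in every library of the 11 cytosolic genes that passed the test in at least 1 comparison, with 1 point per library, the group mean ± SD in black and each axis starting at 0. For Nars the uncrushed vehicle libraries, at 49.1 to 59.6, lie below and the crushed DLKi libraries, at 83.4 to 96.7, above all others, and for Farsb the DLKi groups lie above the vehicle groups whether or not the nerve was crushed.

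Mars1, Iars and Lars belong to the multisynthetase complex. Mars1 (Entrez 216443), for methionine, was at 21.9, 22.2 and 19.3 nRPKM in uncrushed vehicle and 26.6, 24.3 and 25.5 in crushed vehicle retina. It was at 25.6, 25.9, 28, 27.6 and 25.8 with DLKi and no crush and 32.8, 29.6, 32.6, 30.0 and 32.0 with DLKi and crush. It is the only gene of the set that rose in all 4 comparisons, by 0.27 ± 0.07 and 0.24 ± 0.05 with crush (vehicle and DLKi; edgeR adjusted p = 0.0427 and 0.00943) and by 0.33 ± 0.06 and 0.30 ± 0.06 with DLKi (uncrushed and crushed; 0.0258 and 0.0365). The calls were kept in 23 of 23 alternative fits for crush with DLKi, 7 of 23 for crush with vehicle, 14 of 22 for DLKi in uncrushed and 11 of 22 for DLKi in crushed retina. Exons of Ddit3, on the other strand, overlap 1.99% of its exon length, and these libraries do not record strand. Iars (Entrez 105148), for isoleucine, was at 15, 15.5 and 14.8 nRPKM in uncrushed vehicle and 17.4, 16 and 15.7 in crushed vehicle libraries. With DLKi it was at 17.9, 19.8, 19.6, 18.9 and 18.8 and, after crush, at 18.2, 17.9, 21.0, 19.2 and 19.5. The DLKi groups overlapped throughout but lay above the vehicle groups. Iars rose by 0.33 ± 0.06 with DLKi in uncrushed retina (edgeR adjusted p = 0.0187), while crush with DLKi gave 0.02 ± 0.05.

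Lars (Entrez 107045), for leucine, passed with crush under vehicle. It was at 11.4, 11.7 and 12.7 nRPKM in uncrushed vehicle and 15.8, 14.8 and 14 in crushed vehicle retina, and at 13.5, 13.1, 14.1, 14 and 13.5 in uncrushed and 14.4, 14.8, 16, 14.4 and 15.9 in crushed DLKi retina. Crushed and uncrushed libraries were separate under both drugs, and the 2 crushed groups overlapped. Crush with vehicle raised Lars by 0.31 ± 0.07 (edgeR adjusted p = 0.0129). Crush with DLKi gave 0.15 ± 0.05 and DLKi in uncrushed retina 0.19 ± 0.06, neither with overlap of the groups (edgeR adjusted p = 0.112 and 0.144), and the 2 crush effects were not shown to differ. DLKi in crushed retina gave 0.03 ± 0.06, with a 95% interval from -0.10 to 0.15.

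The cytosolic phenylalanine enzyme is built from 2 subunits, and their genes differed. Farsb (Entrez 23874), the beta subunit, was at 17.1, 16.1 and 15.4 nRPKM in uncrushed vehicle and 16.8, 16.3 and 15.3 in crushed vehicle retina. It was at 18.7, 20, 21.4, 19.3 and 19.9 with DLKi and no crush and 18.4, 19.1, 18.9, 18 and 19.5 with DLKi and crush. All 10 DLKi libraries lay above all 6 vehicle libraries, and crushed and uncrushed libraries overlapped under each drug. Farsb rose by 0.29 ± 0.06 with DLKi in uncrushed retina (edgeR adjusted p = 0.0287), and crush gave -0.00 ± 0.06 with vehicle and -0.08 ± 0.05 with DLKi. Farsa, the alpha subunit, was at 27.6, 26.3 and 25.3 nRPKM in uncrushed vehicle and 23.2, 24.7, 25.7, 23.7 and 24.3 in uncrushed DLKi retina, overlapping groups with a log2 change of -0.12 ± 0.06 (edgeR adjusted p = 0.354). The ratio of Farsb to Farsa in nRPKM was 0.607 to 0.621 in the uncrushed vehicle and 0.808 to 0.832 in the uncrushed DLKi libraries. After crush it was 0.537 to 0.726 with vehicle and 0.741 to 0.795 with DLKi. This ratio was picked after the values were seen, and no test of it was made. Farsb shares 9.47% of its exon length with Sgpp2, which lies on the other strand.

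The remaining cytosolic genes did not pass in any comparison. Wars (tryptophan, an interferon-inducible gene) gave 0.34 ± 0.09 with crush under vehicle and 0.23 ± 0.07 under DLKi (edgeR adjusted p = 0.0671 and 0.0707). Eprs, which joins both glutamate and proline, gave 0.27 ± 0.08 and 0.19 ± 0.06 (0.0828 and 0.0807, edgeR). Rars (arginine) and Hars (histidine) reached 0.26 ± 0.07 and 0.24 ± 0.07 with DLKi in uncrushed retina, at edgeR adjusted p of 0.0951 and 0.106. Kars (lysine) gave 0.04 to 0.18 in the 4 comparisons. Vars (valine) gave 0.23 ± 0.08 with crush under vehicle but -0.01 ± 0.06 with crush under DLKi, and the largest decrease of the class in crushed retina with DLKi, -0.10 ± 0.07 (edgeR adjusted p = 0.529). Its 3 crushed vehicle libraries, at 14.2, 15.2 and 14.6 nRPKM, lay just above the crushed DLKi ones at 13.4, 13.2, 14.1, 14 and 13.6. In uncrushed retina Vars was at 11.3, 13.1 and 13.1 with vehicle and 12.9, 12.9, 14.4, 13.3 and 15.5 with DLKi, which overlap. Dars (aspartate) was at 18.4, 17.9 and 17.6 in uncrushed and 17.3, 18.3 and 16.6 in crushed vehicle retina. It gave the largest decrease with crush under vehicle, -0.04 ± 0.10, and a positive value of 0.01 once the 2 vehicle libraries set aside were left out. Qars (glutamine) stayed between -0.06 and 0.00 in the 4 comparisons.

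The rises were spread over both structural classes. Of 9 class I genes 2, 1, 4 and 1 rose with crush under vehicle, crush under DLKi, DLKi in uncrushed and DLKi in crushed retina, and of 10 class II genes 5, 3, 5 and 0 (Eprs belongs to both). Of 8 complex members 2, 1, 2 and 1 rose, and of the 12 outside it 5, 3, 7 and 0. A list of 12 genes known as ATF4-induced held Aars, Cars, Eprs, Gars, Iars, Lars, Mars1, Nars, Sars, Tars, Wars and Yars. All 7, 4 and 1 genes that rose with crush under vehicle, crush under DLKi and DLKi in crushed retina were on it, and 8 of the 9 that rose with DLKi in uncrushed retina. Among the 8 other cytosolic genes the counts were 0, 0, 0 and 1, the last being Farsb. The list was drawn up with earlier results of these data known and lends no independent weight. Of the 13 cytosolic genes with a promoter sequence, the 5 with the core TGATGNAA in the window shown gave 0.32 to 0.56 with DLKi in uncrushed retina, and 5 of 5 rose. The 8 without it gave -0.12 to 0.33, and 2 of them, Mars1 and Farsb, rose. With crush under vehicle 3 of 5 and 2 of 8 rose, with crush under DLKi 2 of 5 and 1 of 8, and with DLKi in crushed retina 0 of 5 and 1 of 8. Cars, Lars and Nars also rose in some comparison but had no promoter sequence to search. Whether the core has a part in these changes was not tested.

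Paired by amino acid, the cytosolic gene had the larger log2 change in 13 of 13 pairs with crush under vehicle and in 13 of 13 with crush under DLKi. The same held in 12 of 13 pairs with DLKi in uncrushed and 11 of 13 with DLKi in crushed retina. In the alanine pair, Aars gave 0.48 and Aars2 -0.06 with crush under vehicle, and 0.49 and -0.19 with DLKi in uncrushed retina. In the asparagine pair the values were 0.43 for Nars and -0.01 for Nars2 with crush. Tyrosine gave 0.56 for Yars and -0.02 for Yars2 with DLKi in uncrushed retina. The exceptions were the leucine pair with DLKi in both retinas and the arginine pair in crushed retina, where Rars gave 0.16 and Rars2 0.23.

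Mitochondrial genes did not pass the test in any comparison. Leaving out Lars2, the highest library exceeded the lowest by at most 1.55-fold for any of them. The lowest edgeR adjusted p of the class was 0.913 with crush under vehicle, 0.235 with crush under DLKi, 0.217 with DLKi in uncrushed and 0.147 with DLKi in crushed retina. Yars2 (tyrosine) gave the largest decrease with crush under vehicle, -0.10 ± 0.10, from 6.88, 6.72 and 6.97 nRPKM in uncrushed to 6.18, 6.32 and 6.70 in crushed libraries, which do not overlap. Aars2 (alanine) gave the largest decrease with DLKi, -0.19 ± 0.09 in uncrushed and -0.29 ± 0.09 in crushed retina (edgeR adjusted p = 0.273 and 0.166). Its 3 crushed vehicle libraries stood at 9.28, 10.6 and 10.9 nRPKM and its 5 crushed DLKi libraries at 8.78, 7.80, 8.24, 8.94 and 8.32, without overlap. Rars2 (arginine) lay the other way in crushed retina, at 12.5, 13 and 12 with vehicle and 15.6, 15, 14.7, 13.4 and 14.4 with DLKi, a log2 change of 0.23 ± 0.07 (edgeR adjusted p = 0.147). Exons of Rab3gap2 overlap 24.2% of the exon length of Iars2 and those of Nrn1, a ganglion cell marker, 10.7% of Fars2, each on the other strand, so that the levels of these 2 genes may include reads of their neighbours.

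Lars2, the mitochondrial leucine enzyme, varied more than any other member. Its 16 libraries ran from 14.1 to 87.6 nRPKM, a 6.19-fold range, and its coefficient of variation within groups was 34.7% against 11.9% for the next most variable member, Hars2. Without crush the vehicle libraries held 14.1, 35.8 and 47.2, and after crush 31.4, 28 and 50.8. The DLKi libraries held 71.5, 38.7, 57.9, 87.6 and 40.3 without crush and 70.2, 62.6, 46.5, 35.2 and 52.2 with it. All 4 groups overlapped. The log2 change of 0.87 ± 0.34 with DLKi in uncrushed retina did not pass (edgeR adjusted p = 0.217). Its change with crush under vehicle, 0.18 ± 0.37, turned to -0.48 without the 2 vehicle libraries set aside, to -0.17 without uncrushed vehicle replicate 1 and to -0.13 without crushed vehicle replicate 3.

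Genes that act beside the synthetases were compared by lists. The 3 scaffold genes of the multisynthetase complex, 5 helpers of mitochondrial tRNA charging (the amidotransferase subunits among them), 6 cytosolic and 4 mitochondrial elongation factors gave 0 genes past the edgeR test in the 4 pairwise comparisons. At an unadjusted p under 0.05 these 4 lists, in the order named, gave 0, 0, 0 and 0 genes with crush under vehicle and 0, 1, 0 and 0 with crush under DLKi (10.4% and 14.4% of all genes). They gave 1, 1, 4 and 3 with DLKi in uncrushed and 2, 1, 0 and 3 with DLKi in crushed retina (17.3% and 13.7% of all genes). All of these were higher with DLKi. The list medians were 0.17, 0.10, 0.16 and 0.24 with DLKi in uncrushed and 0.23, 0.12, 0.14 and 0.24 in crushed retina. For the cytosolic synthetases they were 0.28 and 0.16, so a positive median with DLKi was not particular to those. No gene of these 4 lists passed, however, whereas 9 and 1 of the 20 cytosolic synthetase genes did. The scaffold gene Aimp1 was at 27.6 ± 2.14 nRPKM in uncrushed vehicle and 27.3 ± 2.62 in crushed vehicle retina (SD, n = 3 each). Xpot, which exports tRNA from the nucleus, rose by 0.19 ± 0.05 with crush under DLKi (edgeR adjusted p = 0.0415) and gave 0.18 ± 0.07 with crush under vehicle.

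Of 21 genes of amino acid synthesis and transport known as stress-response targets, 10 rose with crush under vehicle and 7 with crush under DLKi. With DLKi 3 rose in uncrushed and 0 in crushed retina. Of all genes, 1.77%, 3.29%, 0.263% and 0.129% rose in these 4 comparisons. Aldh18a1, an enzyme of proline synthesis, rose by 0.69 ± 0.10, 0.50 ± 0.08 and 0.52 ± 0.09 in the first 3 of them (edgeR adjusted p = 0.000562, 0.000461 and 0.0159). Mthfd2, of mitochondrial folate metabolism, rose by 0.77 ± 0.11 with DLKi in uncrushed retina (edgeR adjusted p = 0.00535), from 4.12 ± 0.311 to 7.06 ± 0.967 nRPKM (SD, n = 3 and 5). Phgdh, which starts serine synthesis, rose by 1.40 ± 0.19 with crush under vehicle (0.000339, edgeR), whereas DLKi in uncrushed retina gave 0.47 at an adjusted p of 0.202. Shmt2, of serine and glycine metabolism, rose by 0.40 ± 0.07 with crush under vehicle (edgeR adjusted p = 0.00373), and Pycr1, the last enzyme of proline synthesis, by 0.98 ± 0.13 with crush under DLKi (0.00017, edgeR). Slc1a5, a glutamine carrier, fell by 0.57 with DLKi in uncrushed and by 0.53 in crushed retina (edgeR adjusted p = 0.0158 and 0.0202), while crush gave -0.06 and -0.02.

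Of 16 genes of eIF2 signalling, 2 rose with crush under vehicle and 3 with crush under DLKi (1.77% and 3.29% of all genes). With DLKi 2 rose in uncrushed and 0 in crushed retina (0.263% and 0.129% of all genes). Chac1, an ATF4 target that breaks down glutathione, went from 2.34 ± 0.223 to 9.17 ± 1.39 nRPKM with crush under vehicle (SD, n = 3 each) and from 4.93 ± 1.21 to 7.34 ± 0.941 under DLKi (SD, n = 5 each). It rose by 1.97 ± 0.20 with crush under vehicle, 0.58 ± 0.14 with crush under DLKi and 1.07 ± 0.18 with DLKi in uncrushed retina (edgeR adjusted p = 1.35e-05, 0.0215 and 0.0145). The difference of its crush effects was -1.39 ± 0.24, at an edgeR adjusted p of 0.139. Eif2ak2, an interferon-induced eIF2 kinase, rose by 1.33 ± 0.26 with crush under DLKi (0.00405, edgeR). Ddit3, a stress-induced transcription factor, rose by 0.72 ± 0.09 and 0.41 ± 0.07 with crush (edgeR adjusted p = 0.000146 and 0.00147). Ppp1r15b, a phosphatase subunit that restores eIF2, rose by 0.31 ± 0.06 with DLKi in uncrushed retina (0.0402, edgeR). Atf4 itself did not pass in any comparison, at 112 ± 1.59, 124 ± 9.77, 141 ± 13.3 and 146 ± 10.5 nRPKM in uncrushed vehicle, crushed vehicle, uncrushed DLKi and crushed DLKi retina. Its change with DLKi in uncrushed retina was 0.33, with an edgeR adjusted p of 0.0685.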

How the data were processed

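RNA of 16 retinas was sequenced with a TruSeq kit (version 2) that does not mark strand. Per the file headers, the authors' deposited files give for each Entrez gene the count of uniquely aligned reads and nRPKM, which is RPKM adjusted by each library's size factor. GSNAP and the GRCm38 build are named per the submitters' processing notes; the sources used here give no settings or annotation release. Counts were used for the tests, nRPKM for levels. Symbols and coordinates came from RefSeq (GRCm38.p6; 31049 of 36528 identifiers matched, the rest holding 1.098% to 1.216% of counts), exon overlaps from GENCODE on the same build.

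edgeR 4.0.16 in R 4.3.3 (TMM, filterByExpr, quasi-likelihood F test, two-sided) took all 16 libraries, 1 coefficient for each group and no covariates, leaving 19391 genes with 12 residual and 5.27 prior degrees of freedom. Scaling factors were 0.9729 to 1.024. Adjusted p-values follow Benjamini-Hochberg across every gene tested in a comparison, with a threshold of 0.05. The script was tested on simulated counts for crush with vehicle. It recovered 22% of 100 genes changed by 0.4 on the log2 scale and 92% of 100 changed by 1, with 6 false calls. A gene that did not pass is therefore not shown to be unchanged. No 2 replicates were copies of a library (chi-square per degree of freedom 6.73 to 42.84). Class means are of log2 CPM with a prior count of 0.5.

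Alternatives were DESeq2 1.42.0, RLE factors, no filter, only the groups compared, the removal of 2 vehicle libraries (uncrushed replicate 1 and crushed replicate 3, picked in earlier work on these data), each library left out, and, chosen after the data were seen, the removal of the 3 libraries richest in lens transcripts and a block for couples of consecutive library numbers. Within the 3 vehicle couples deviations from the group means correlated by 0.13 to 0.41. Named with full values were the genes that passed in any contrast and the largest increase and decrease of each class, and from other lists up to 3 genes that passed, or 1. The members, lists and this rule were chosen with earlier results of these data known.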

Additional observations from a re-analysis of the deposited data

Results flagged for a closer look

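In 4 of the 72 gene and group combinations with 5 samples, 1 library lay far from the other 4, by a gap above 0.71 of the group's range; chance gives about 1 in 20. All 4 are mitochondrial genes and the far library was the lowest in each. Fars2 was at 4.32 nRPKM in uncrushed DLKi replicate 2, against 4.86 to 5.06 in the others, and Wars2 at 1.81 in uncrushed DLKi replicate 4, against 1.96 to 2.02. Pars2 was at 3.01 in crushed DLKi replicate 4, against 3.45 to 3.58, and Yars2 at 5.68 in uncrushed DLKi replicate 5, against 6.85 to 7.23.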

How the results depend on the processing

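The labels share no replicate number between groups, but the library numbers in the titles form 8 consecutive couples, used as a replicate block in a fit chosen after the data were seen. Deviations from the group means correlated by 0.13, 0.25 and 0.41 within the 3 vehicle couples and by 0.02 to 0.23 within the 5 DLKi ones, of which 3 exceeded 0.1. Which DLKi retinas share a mouse is therefore not established. 7 of 8 uncrushed libraries correlated best with their own couple, a hint from the data and not from the design. With the replicate block the counts were 12 (crush under vehicle, 3.81% of all genes) and 10 (crush under DLKi, 5.43% of all genes). That fit passed 1234 and 2080 of all genes in either direction, against 510 and 1034 in the edgeR fit without the block. No mitochondrial gene passed in it, and no gene of the set passed for the difference of crush effects. The direction of the cytosolic median held in every fit run. Counts of cytosolic genes that rose moved as follows, in the order crush under vehicle (7), crush under DLKi (4), DLKi in crushed (1) and DLKi in uncrushed retina (9). With only the groups compared they were 1, 7, 0 and 0, without the 2 vehicle libraries set aside 4, 8, 0 and 0, and without the 3 lens-rich libraries 4, 2, 0 and 0. Of all genes, 281, 1201, 45 and 3 passed in the first of these settings. In the second 389, 1378, 53 and 11 passed, and in the third 263, 620, 76 and 7. The edgeR fit of all 16 libraries passed 510, 1034, 98 and 122. DESeq2 gave 10, 7, 5 and 14, and without the filter the count for DLKi in crushed retina was 0. The cytosolic medians of these 4 comparisons were 0.27, 0.15, 0.16 and 0.27 with only the groups compared, 0.27, 0.15, 0.11 and 0.24 without the 2 vehicle libraries and 0.29, 0.15, 0.16 and 0.29 without the lens-rich ones. Leaving out 1 library at a time gave 2 to 8, 1 to 7, 0 to 2 and 1 to 10, and cytosolic medians of 0.22 to 0.29, 0.12 to 0.18, 0.11 to 0.21 and 0.24 to 0.31. In these fits 276 to 506, 748 to 1258, 22 to 144 and 17 to 205 of all genes passed. The mitochondrial median with crush under DLKi became 0.05 without the lens-rich libraries. With crush under vehicle, Dars turned to 0.01 and Lars2 to -0.48 without the 2 vehicle libraries set aside. Leaving out 1 library at a time, Lars2 ran from -0.17 (without uncrushed vehicle replicate 1; -0.13 without crushed vehicle replicate 3) to 0.55. The difference of crush effects for Lars2 turned to 0.34 and 0.03 (without the 2 libraries, and without uncrushed vehicle replicate 1), and ran from -0.7 to 0.03 with 1 library left out. The cause of these changes was not tested. RLE and DESeq2 scaling moved the median of all genes by -0.0034 to 0.0021. No mitochondrial gene passed under any of these settings.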
